A study of Homo sapiens with 2 samples.

Results

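The genes described here encode the kinases that phosphorylate the translation initiation factor eIF2 (EIF2AK1, EIF2AK2, EIF2AK3 and EIF2AK4), the phosphorylated subunit eIF2 alpha (EIF2S1), and the subunits of the exchange factor eIF2B (EIF2B1, EIF2B2, EIF2B3, EIF2B4 and EIF2B5). They are 10 of the 25702 genes in the deposited counts, a set defined by gene name, found by symbol in the authors' comparison table and joined to the counts by Entrez identifier. RNA was sequenced from K562, an established human erythroleukemia line that carries the BCR-ABL1 fusion, grown in RPMI medium with fetal bovine serum and not synchronised. One library came from cells given 1 µM cabozantinib (XL184), an inhibitor of MET, AXL, VEGF receptors and other kinases, for 48 h, and the other from cells given the solvent DMSO for 48 h. Each group therefore held 1 library of 1 cell line, and no difference below has a replicate check.

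eIF2 carries the initiator methionyl-tRNA to the small ribosomal subunit and leaves it bound to GDP, and eIF2B recharges it with GTP. Each eIF2 kinase answers a different stress: EIF2AK1 (HRI) heme shortage and mitochondrial stress, EIF2AK2 (PKR) double-stranded RNA, EIF2AK3 (PERK) misfolded protein in the endoplasmic reticulum, and EIF2AK4 (GCN2) amino acid shortage. The phosphorylated factor binds eIF2B and holds it inactive, so general initiation falls while transcripts with upstream reading frames, such as ATF4, are translated better, and in red cell precursors HRI is known for matching globin synthesis to the supply of heme. The activity of all these proteins is set largely by phosphorylation and binding, which RNA counts do not measure.

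The site where the kinases act on eIF2 alpha is shown first, because it is the point at which the 10 genes meet. It is codon 52 of the EIF2S1 reading frame, which is serine 51 when the start methionine is not counted. The stretch below is 63 bases of coding sequence in exon 2 of transcript 201 of EIF2S1 in GENCODE 29, on the plus strand of GRCh38 at chr14:67364891-67364953, and the capitals mark the serine codon.
EIF2S1 phosphorylation site: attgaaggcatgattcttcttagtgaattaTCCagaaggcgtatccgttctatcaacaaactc

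Promoter windows from RefSeq (GRCh38.p14, 250 bases before to 50 after each start) were matched by symbol for 9 of the 10 genes, all but EIF2AK1. The stretches printed here belong to the kinase with the highest ratio among the 9 (EIF2AK2), and to the eIF2B subunits with the highest and the lowest ratio (EIF2B1 and EIF2B2), so that the sequences can be set beside the values that follow. They lie at chr2:37156977-37157096 on the minus strand, chr12:123633687-123633806 on the minus strand and chr14:75002806-75002925 on the plus strand. Capitals mark AAANNGAAA, the core of the interferon-stimulated response element, in EIF2AK2, and CCGGAAG, a core site of ETS factors, in the eIF2B genes.
EIF2AK2 promoter: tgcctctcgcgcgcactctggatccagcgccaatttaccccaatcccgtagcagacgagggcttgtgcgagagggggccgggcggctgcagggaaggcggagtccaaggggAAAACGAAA
EIF2B1 promoter: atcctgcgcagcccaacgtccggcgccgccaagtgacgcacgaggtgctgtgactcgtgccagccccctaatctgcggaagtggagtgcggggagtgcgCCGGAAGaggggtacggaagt
EIF2B2 promoter: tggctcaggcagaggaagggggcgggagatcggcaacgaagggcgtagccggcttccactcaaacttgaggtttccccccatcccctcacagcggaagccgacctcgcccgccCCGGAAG

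Each motif was searched on both strands. The motifs were chosen after the sequences were seen, so the counts for the 9 genes are description only. A gene was counted if any of its windows matched, while the shares count windows. AAANNGAAA was found in 1 of the 9 genes, EIF2AK2, and in 10.5% of all 35116 promoter windows. CCGGAAG was found in 3 of the 9 (EIF2AK3, EIF2B1 and EIF2B2) and in 10.3% of all windows. EIF2B1 and EIF2B2 both have this motif near their start. They had the highest and the lowest ratio of the complex, and any link to the motif was not tested. GCATGCGC, the core site of NRF1, was found in 2 of the 9 (EIF2B5 and EIF2S1) and in 3.05% of all windows. CCAAT, the NF-Y box, was found in 5 of the 9 (EIF2AK2, EIF2AK3, EIF2B2, EIF2B3 and EIF2B4) and in 34.6% of all windows. TGATGNAA, the composite element of ATF4 and C/EBP factors, was found in 0 of the 9 and in 3.62% of all windows. The same held for AGATAA, where GATA factors bind, with 0 of the 9 and 10.3% of all windows. None of the printed matches overlaps another of these motifs, and a match is a description of letters, not of binding.

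The DMSO library held 25025243 counts and the cabozantinib library 25505289. Levels are given as CPM (counts for each 1e6 counts, on library sizes scaled with TMM), and as TPM, which also divides by the exon length of the gene. Levels of different genes are compared by TPM within a library, and also as shares of a group's summed TPM. A single gene is compared between libraries by its CPM and its ratio. A level of 1 CPM in either library was the floor for calling a gene measured, which 12536 genes reached. Their median log2 ratio of cabozantinib over DMSO was 0.01, and their quartiles lay at -0.29 and 0.27. All 10 of 10 erythroid markers were measured, as the line's label has it, and their summed level was 13494 CPM in DMSO and 37573 CPM with cabozantinib. Of the markers of other cells, 1 of 5 megakaryocyte genes was measured (14.0 and 6.34 CPM summed, with PF4, GP9 and GP1BA at 0), 2 of 6 granulocyte and monocyte genes (18.0 and 9.57 CPM, MPO and ELANE at 0), 2 of 7 lymphocyte genes (11.3 and 3.15 CPM, MS4A1 at 0) and 5 of 8 fibroblast and epithelial genes (536 and 394 CPM). The highest marker of each of these other lists in DMSO was ITGA2B (13.9 CPM), LYZ (16.7 CPM), CD3D (9.59 CPM) and KRT18 (248 CPM), in that order. The part of the erythroid markers in the ratios below was not tested, and in bulk RNA fewer cells of a type and less RNA per cell cannot be told apart.

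RNA of each eIF2 kinase, of eIF2 alpha and of each eIF2B subunit lay within 1.5-fold between the libraries. On TMM-scaled counts most were somewhat higher with cabozantinib, and by TPM the higher genes differed less. All 10 genes were measured, at 385 to 14180 counts per library, and their log2 ratios ran from -0.24 (EIF2AK4) to 0.44 (EIF2AK2) with a median of 0.23. To be called, a gene had to reach 1.5-fold in one direction with the exact 95% counting interval of its ratio clear of 1. By that rule 0 of the 10 genes were higher, against 8.15% of all measured genes, and 0 were lower, against 12.3%. At 2-fold 0 of the 10 were called in either direction, against 8.47% of measured genes. At a smaller size, a log2 ratio of 0.32, 3 of the 10 were higher (EIF2AK1, EIF2AK2 and EIF2B1), against 19.2% of measured genes, and 0 were lower, against 20.5%. This last count depends on the scaling: with plain total counts 1 gene was higher (EIF2AK2) and 1 lower (EIF2AK4). The shares of measured genes above are for TMM scaling and do not apply to total counts.

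The interval alone, without a size, lay above no change for 7 of the 10 genes, against 34.8% of measured genes. It lay below no change for 1 of the 10 (EIF2AK4), against 32.1%. Intervals narrow as counts rise, and these shares of measured genes were not matched to the counts of the 10 genes. EIF2AK3 and EIF2B2 had intervals that included no change. EIF2AK1, EIF2AK2, EIF2B1 and EIF2B4 had ratios above the upper quartile of measured genes. These intervals cover counting error only, so they say nothing of how far 2 cultures given the same treatment would differ.

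**Figure D1:**
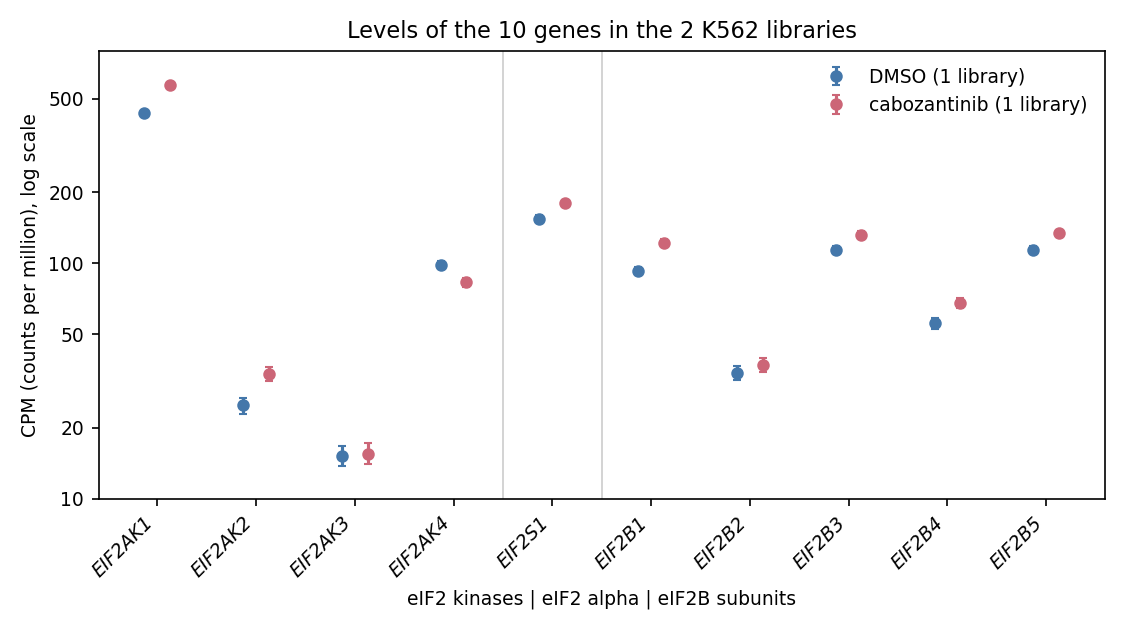
Levels of the 10 genes in the DMSO and cabozantinib libraries, in CPM on a log axis, with bars for the exact 95% counting interval of each library; CPM is not divided by gene length, so heights are to be read within a gene. The paired points lie within 1.5-fold of each other for every gene, and the cabozantinib point is below the DMSO point for EIF2AK4 alone.

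EIF2AK1 (Entrez 27102, 15 exons at chr7:6061878-6098860, minus strand, hg19) encodes the heme-regulated kinase HRI and was the most abundant eIF2 kinase RNA. It had 11210 counts in DMSO and 14180 with cabozantinib, or 435 and 572 CPM. The cabozantinib library was 1.32-fold higher (interval 1.28 to 1.35), a log2 ratio of 0.40, and 16.1% of measured genes had a higher ratio. Its exons share 532 bases, 11.9% of its counted length, with AIMP2 on the opposite strand, a scaffold of the tRNA synthetase complex with 1049 and 1108 counts and a log2 ratio of 0.14. Whether the counting used strand is not stated, and without it reads of that stretch cannot be told apart.

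EIF2AK2 (Entrez 5610, 17 exons at chr2:37333699-37384190, minus strand) encodes PKR, which binds double-stranded RNA and is itself an interferon-stimulated gene. It had 642 counts in DMSO and 840 with cabozantinib, or 24.9 and 33.9 CPM. Its log2 ratio of 0.44 (interval 0.29 to 0.60) was the highest of the 10 genes, and 13.6% of measured genes lay above it. With fewer counts its interval was wider than that of EIF2AK1 and held it.

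EIF2AK3 (Entrez 9451, 17 exons at chr2:88856259-88927094, minus strand) encodes PERK, the kinase that spans the endoplasmic reticulum membrane, and was the scarcest of the 10 RNAs. It had 393 and 385 counts, or 15.3 CPM in DMSO and 15.5 CPM with cabozantinib, and a log2 ratio of 0.03 (interval -0.18 to 0.23). The sign of so small a ratio turned with the scaling, to -0.06 with total counts. An opposite-strand gene without a symbol in the files (Entrez 100507360, 65 and 51 counts) shares 56 bases, 1.20% of the length counted for EIF2AK3.

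EIF2AK4 (Entrez 440275, 39 exons at chr15:40226347-40327797, plus strand) encodes GCN2, which senses uncharged tRNA, and was the single gene of the 10 with an interval below no change. It had 2542 counts in DMSO and 2063 with cabozantinib, or 98.7 and 83.3 CPM. The cabozantinib library was 1.18-fold lower (interval 1.12 to 1.26), a log2 ratio of -0.24, and 27.8% of measured genes had a lower ratio.

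Per exon length the kinases kept the order EIF2AK1, EIF2AK4, EIF2AK2, EIF2AK3 in both libraries. In DMSO they stood at 204 TPM, 37.5 TPM, 17.8 TPM and 6.88 TPM, a span of 29.7-fold, and with cabozantinib at 239, 28.1, 21.5 and 6.22 TPM, a span of 38.3-fold. EIF2AK1 exceeded the other kinases added together by 3.28 times in DMSO and 4.27 times with cabozantinib. HRI RNA thus made up most of the eIF2 kinase RNA in both cultures. Its share of the summed kinase TPM was 76.6% (counting interval 76.0% to 77.3%) in DMSO and 81.0% (80.4% to 81.6%) with cabozantinib. The share of EIF2AK4 was 14.1% (13.6% to 14.6%) in DMSO and 9.55% (9.15% to 9.95%) with cabozantinib. The shares of EIF2AK2 were 6.69% and 7.31%, and those of EIF2AK3 2.58% and 2.11%.

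The ratios of the kinases were also set against each other, since library scaling cancels in the difference of log2 ratios. Pairs among all measured genes were not compared, so the counts of pairs have no background share. Of the 6 pairs, 5 had a counting interval that excluded 0, and 2 differed by at least 1.5-fold. Both of these involve EIF2AK4: the ratio of EIF2AK1 exceeded that of EIF2AK4 by 0.64 on the log2 scale (0.55 to 0.73), and the ratio of EIF2AK2 exceeded it by 0.69 (0.52 to 0.86). For HRI and PKR the difference was -0.05, with an interval of -0.20 to 0.10 that included 0. EIF2AK3 lay between, below EIF2AK1 by 0.37 (0.16 to 0.57) and above EIF2AK4 by 0.27 (0.05 to 0.49). Within the family GCN2 thus had the lowest ratio, with intervals clear of 0 against each other kinase.

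**Figure D2:**
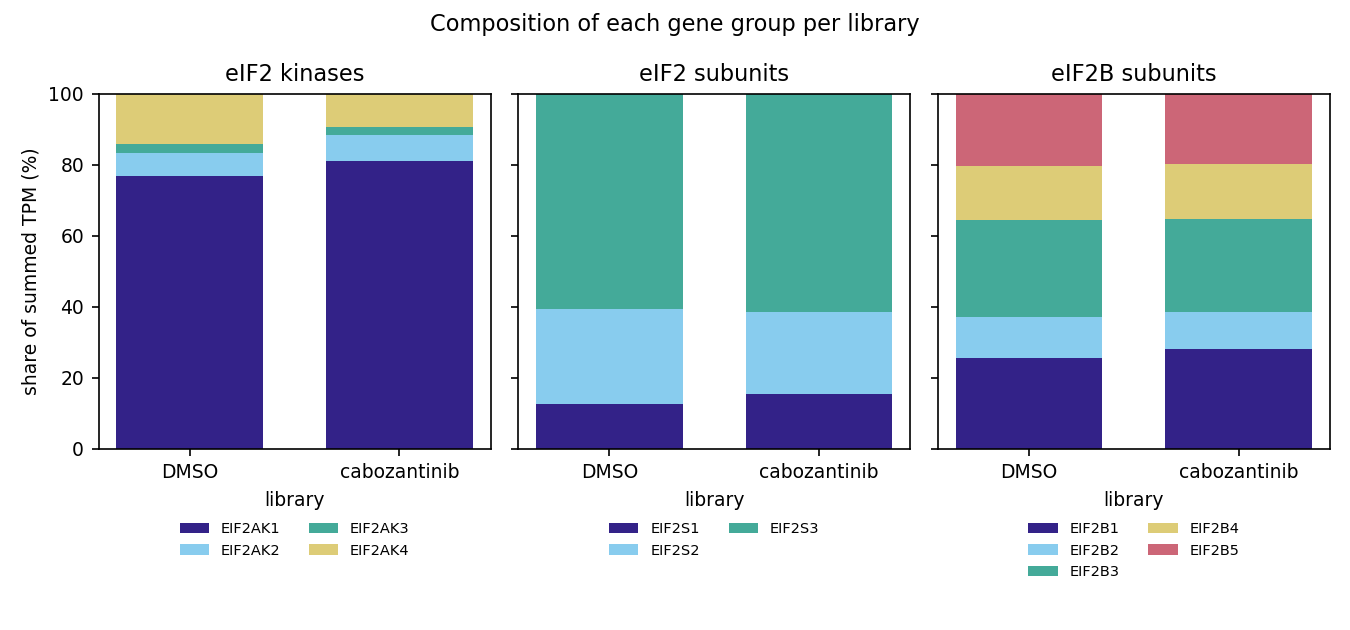
Stacked bars of the share of each gene in the summed TPM of its group, in percent, for the DMSO and cabozantinib libraries. The groups are the kinases, the eIF2 subunits and the eIF2B subunits, and counting intervals are not drawn. EIF2AK1 holds 76.6% and 81.0% of kinase TPM, while no eIF2B subunit holds more than 28.1%.

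EIF2S1 (Entrez 1965, 8 exons at chr14:67827034-67853233, plus strand) encodes eIF2 alpha, the substrate of all the kinases. It had 3993 counts in DMSO and 4463 with cabozantinib, and its log2 ratio was 0.22 (interval 0.16 to 0.28), 1.16-fold higher, with 29.1% of measured genes above it. Its partners in the trimer had ratios below 0: EIF2S2, the beta subunit, had 5300 and 4132 counts and a log2 ratio of -0.30 (-0.36 to -0.24), and EIF2S3, the gamma subunit that holds GTP and the tRNA, had 16067 and 14734 counts and a ratio of -0.07 (-0.10 to -0.04). Neither partner passed 1.5-fold.

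The subunits of eIF2 bind in equal number, but their RNAs were unequal. In DMSO EIF2S1 stood at 78.1 TPM, EIF2S2 at 166 TPM and EIF2S3 at 378 TPM, and with cabozantinib at 80.5, 119.7 and 319 TPM. By TPM EIF2S1 was the scarcest of the trimer in both libraries, with 12.5% of the summed TPM (12.2% to 12.9%) in DMSO and 15.5% (15.1% to 15.9%) with cabozantinib. EIF2S2 exceeded EIF2S1 by 2.13 times in DMSO and by 1.49 times with cabozantinib, and EIF2S3 exceeded it by 4.84 and 3.97 times. The log2 ratio of EIF2S1 was above that of EIF2S2 by 0.52 (0.43 to 0.60), which is 1.43-fold, and above that of EIF2S3 by 0.29 (0.22 to 0.36). CDC123, the factor that assembles the trimer, had a log2 ratio of -0.04 (-0.11 to 0.03).

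All 5 eIF2B subunits had log2 ratios above 0, from 0.11 to 0.40 with a median of 0.24, and none passed 1.5-fold. EIF2B1, EIF2B2 and EIF2B4 (alpha, beta and delta) form the regulatory core that binds phosphorylated eIF2, while EIF2B3 and EIF2B5 (gamma and epsilon) form the catalytic part. EIF2B1 (Entrez 1967, 9 exons at chr12:124105570-124118323, minus strand) had 2393 counts in DMSO and 3037 with cabozantinib, or 92.9 and 123 CPM, and a log2 ratio of 0.40 (0.32 to 0.48). It was the highest ratio of the complex, 1.32-fold, with 15.8% of measured genes above it. EIF2B2 (Entrez 8892, 8 exons at chr14:75469612-75476294, plus strand) had 882 and 917 counts, or 34.2 and 37.0 CPM, and the lowest ratio, 0.11 (-0.02 to 0.25). EIF2B4 (Entrez 8890, 13 exons at chr2:27587219-27593324, minus strand) had 1433 and 1677 counts, or 55.6 and 67.7 CPM, and a ratio of 0.28 (0.18 to 0.39).

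The catalytic pair had nearly the same ratio. EIF2B3 (Entrez 8891, 12 exons at chr1:45316194-45452361, minus strand) had 2934 counts in DMSO and 3280 with cabozantinib and a log2 ratio of 0.22 (0.15 to 0.29). EIF2B5 (Entrez 8893, 16 exons at chr3:183852810-183863099, plus strand), which carries the exchange activity, had 2940 and 3331 counts and a log2 ratio of 0.24 (0.17 to 0.31). The difference between them was -0.02 (-0.12 to 0.08), the smallest of the 10 pairs of subunits. In 4 of the 10 pairs the interval of the difference excluded 0, and in 0 did the difference reach 1.5-fold, here too with no background share. Of those 4 pairs, 3 involve EIF2B1, whose ratio was above that of EIF2B2 by 0.29 (0.13 to 0.44), of EIF2B3 by 0.18 (0.08 to 0.29) and of EIF2B5 by 0.16 (0.06 to 0.27). The fourth pair is EIF2B2 below EIF2B4, by a difference of -0.17.

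Per length the eIF2B subunits lay close together, within 2.38-fold of each other in DMSO and 2.73-fold with cabozantinib, against the spans of 29.7 and 38.3 among the kinases. In DMSO EIF2B3 stood at 111 TPM, EIF2B1 at 104, EIF2B5 at 82.6, EIF2B4 at 61.5 and EIF2B2 at 46.6 TPM. With cabozantinib EIF2B1 stood first at 122 TPM, then EIF2B3 at 114, EIF2B5 at 86.3, EIF2B4 at 66.4 and EIF2B2 at 44.7 TPM. The first and second place by TPM thus differed between the libraries, while the shares of EIF2B1 and EIF2B3 in DMSO, 25.7% (24.8% to 26.6%) and 27.3% (26.5% to 28.2%), had overlapping intervals. With cabozantinib the shares were 28.1% (27.3% to 29.0%) and 26.4% (25.6% to 27.1%). EIF2B2 was the scarcest subunit in both libraries, with 11.5% (10.8% to 12.2%) and 10.3% (9.68% to 10.9%).

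In the authors' deposited table, which gives each gene a posterior probability of differential expression, the 10 genes had values from 0.00413 to 0.0323, EIF2AK2 the highest. A probability of at least 0.95 was given there to 4.66% of its 17392 genes and to 0 of the 10. The authors' deposited table also gave less than that to PPP1R15A (0.810) and EIF5 (0.901), partners of the 10 genes. The shrunken fold of the authors' deposited table was 1.31 for EIF2AK1, 1.35 for EIF2AK2, 0.839 for EIF2AK4 and 1.31 for EIF2B1.

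**Figure D3:**
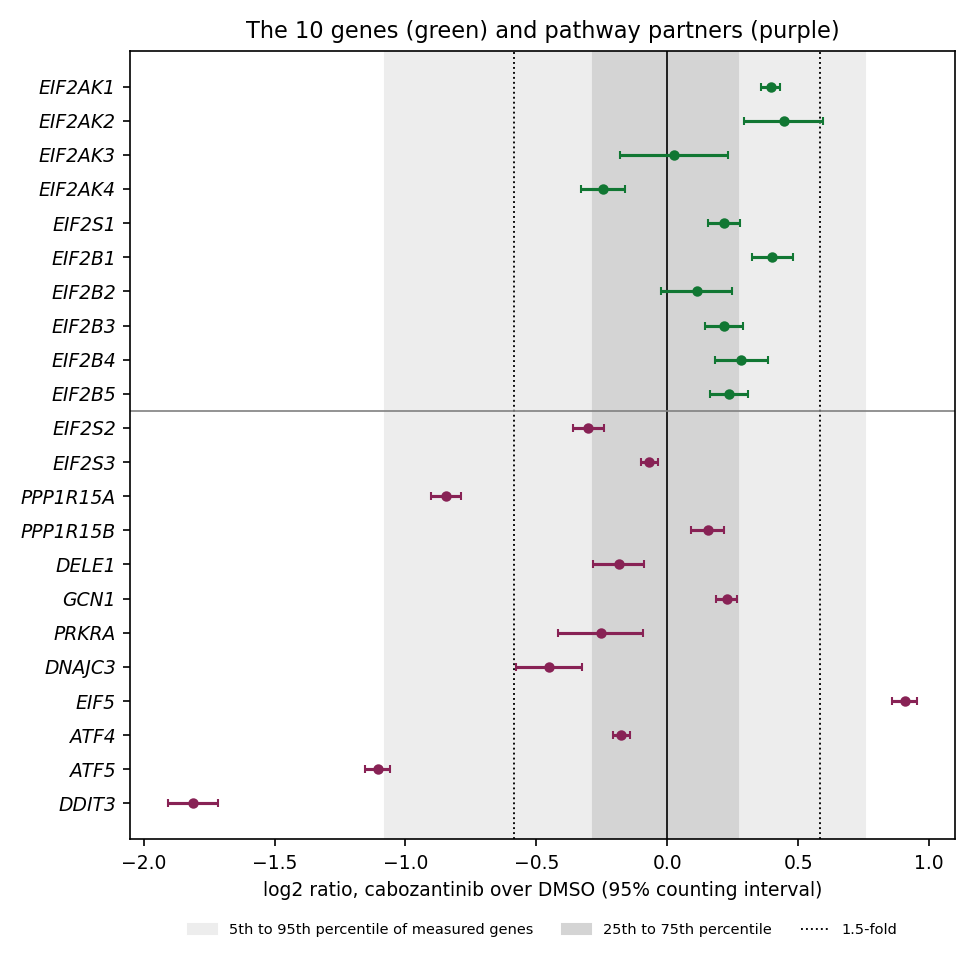
Log2 ratio of cabozantinib over DMSO with its exact 95% counting interval for the 10 genes (green) and partners in the pathway (purple), over grey bands for the 5th to 95th and 25th to 75th percentile of measured genes and dotted lines at 1.5-fold. The 10 genes lie between -0.24 and 0.44, while PPP1R15A, ATF5 and DDIT3 lie below the lower dotted line and EIF5 above the upper one.

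The phosphate that the kinases add is removed by phosphatase PP1 with one of a pair of guiding subunits, and here the libraries differed by more than they did for any kinase. PPP1R15A (GADD34), the stress-induced subunit and a target of ATF4, had 7022 counts in DMSO and 3761 with cabozantinib. It was 1.79-fold lower (interval 1.72 to 1.87), a log2 ratio of -0.84. It was the 1 of 5 phosphatase genes called, where 12.3% of all measured genes were called lower. PPP1R15B (CReP), the constitutive subunit, had 3974 and 4251 counts and a ratio of 0.15 (0.09 to 0.22). The TPM of PPP1R15A was 3.91 times that of PPP1R15B in DMSO and 1.96 times with cabozantinib. The catalytic subunits PPP1CA, PPP1CB and PPP1CC had log2 ratios of 0.01, -0.18 and -0.18.

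Of 11 genes whose proteins act on the kinases, 1 was lower by 1.5-fold and 0 were higher, with a median log2 ratio of -0.19. With total counts 2 were lower, a scaling for which no share of all measured genes is given. With TMM scaling 12.3% of all measured genes were lower and 8.15% higher by the 1.5-fold rule. DELE1, which carries mitochondrial stress to HRI, had 1902 and 1608 counts and a ratio of -0.19 (-0.28 to -0.09), and OMA1, the protease that cleaves it, 0.36 (0.21 to 0.51). PRKRA (PACT), an activator of PKR, had 691 and 557 counts and a ratio of -0.25 (-0.42 to -0.09). GCN1, the ribosome-bound activator of GCN2, had 9509 and 10705 counts and a ratio of 0.23 (0.19 to 0.27), of opposite sign to that of GCN2 itself. IMPACT, which competes with GCN2 for GCN1, had a ratio of -0.54 (-0.72 to -0.37).

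Near-equal counts of PERK stood beside lower counts of several genes of the endoplasmic reticulum. HSPA5 (BiP), the chaperone that holds PERK inactive, was the regulator called, 2.67-fold lower at 13263 counts with cabozantinib against 36877 in DMSO. DNAJC3 (p58IPK), an inhibitor of the eIF2 kinases PERK and PKR, had 1245 and 875 counts and a ratio of -0.45 (-0.58 to -0.33). The unfolded protein response list had 5 of 10 genes lower by 1.5-fold and 0 higher, against 12.3% and 8.15% of measured genes. Its median was -0.61. Among these, ERN1 (IRE1), another sensor of the same membrane, had 846 and 234 counts and was 3.47-fold lower, HERPUD1 was 2.64-fold lower and SEL1L, a part of the degradation machinery, 2.45-fold lower. EIF2AK3 had a log2 ratio of 0.03 against -1.79 for ERN1.

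Among 10 factors that work beside eIF2 in the initiation cycle or can stand in for it, 1 was higher and 1 lower by 1.5-fold. The shares of all measured genes were 8.15% and 12.3%, and the median of the 10 factors was -0.10. EIF5, which makes eIF2 hydrolyse its GTP and then holds the GDP form until eIF2B displaces it, had 5491 counts in DMSO and 9901 with cabozantinib. It was 1.88-fold higher (interval 1.81 to 1.94), a log2 ratio of 0.91, above every one of the eIF2B subunits. Its TPM was 0.906 times the mean of the eIF2B subunits in DMSO and 1.41 times with cabozantinib. EIF1, which guards start codon choice, had 21850 and 13297 counts and was 1.58-fold lower. EIF5 and EIF1 are known to control each other's translation through the start codon context, and their RNA ratios had opposite signs here.

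The transcripts downstream of eIF2 phosphorylation were set beside the kinases. ATF4, whose translation rises when eIF2 is phosphorylated, had 16327 and 13893 counts and a log2 ratio of -0.18 (-0.21 to -0.14). ATF5 and DDIT3 (CHOP), also controlled by upstream reading frames, were 2.15-fold lower (11024 and 4924 counts) and 3.51-fold lower (4072 and 1116 counts). These were the 2 called lower of 6 such transcripts, against 12.3% of measured genes. Of the 6, 0 were higher, against 8.15%, and the median was -0.25. The list of ATF4 target genes was chosen with earlier results of these data known. Of 20 target genes of ATF4, 19 were lower and 0 higher by 1.5-fold, against 12.3% and 8.15% of measured genes. Their median log2 ratio was -1.58. Of the 19, NUPR1 and VLDLR reached 1 CPM in DMSO alone, which fixed the direction of their difference but not its size. With a floor of 5 CPM, which leaves both out, 17 were lower and the median was -1.37. No share of all genes is given at that floor. CHAC1, a glutathione-degrading enzyme, had 3382 counts in DMSO and 408 with cabozantinib, and TRIB3, a pseudokinase, had 15001 and 2863. NUPR1, a stress-induced chromatin protein, had 41 and 2 counts. The target outside the count was ALDH18A1, an enzyme of proline synthesis, at 0.11. None of the kinase RNAs differed by more than 1.36-fold between the same libraries.

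**Figure D4:**
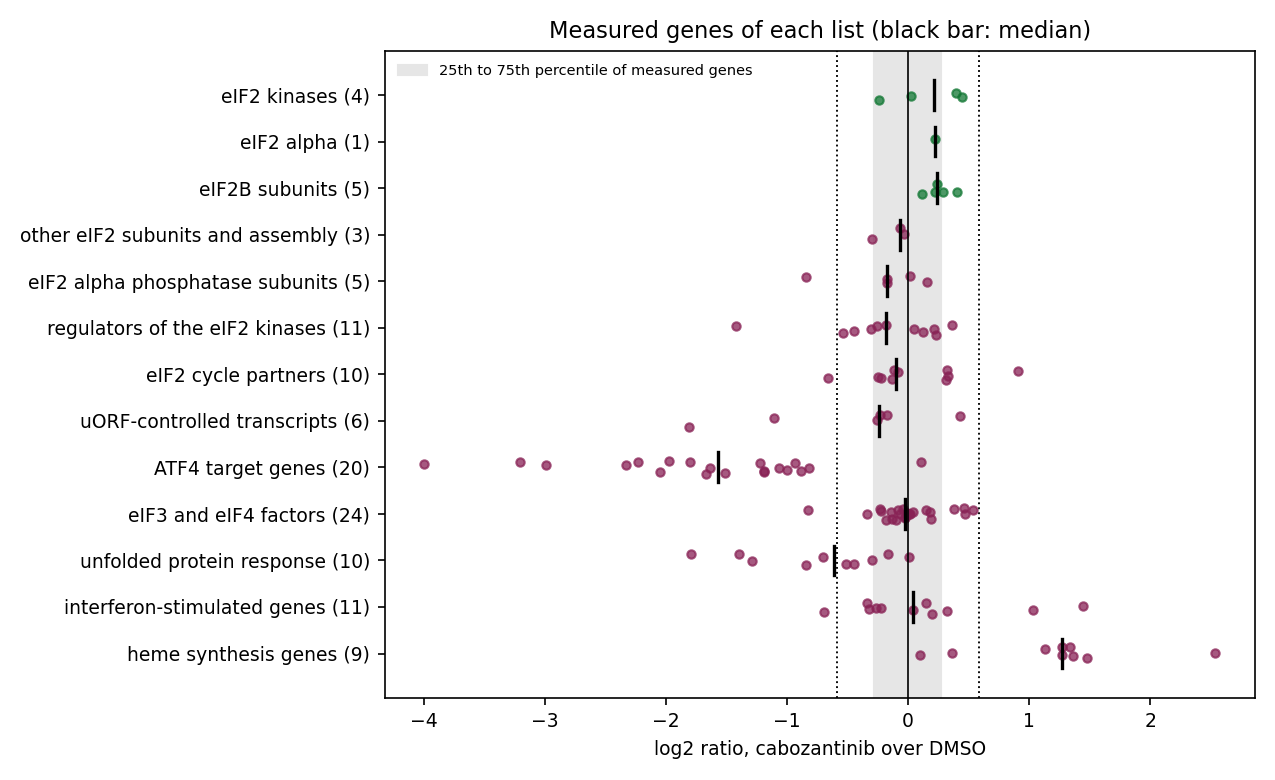
Log2 ratios of cabozantinib over DMSO for each measured gene of the kinase, eIF2 alpha and eIF2B groups and of the lists around them, with a bar at each median, a grey band between the quartiles of measured genes and dotted lines at 1.5-fold. The medians run from -1.58 for ATF4 target genes to 1.27 for heme synthesis genes, with the kinases at 0.21 and eIF2B at 0.24.

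A list each was set beside HRI and PKR, of heme synthesis genes and of interferon-stimulated genes. Neither list measures heme or double-stranded RNA, which these kinases answer to. Of 9 heme synthesis genes, 7 were higher and 0 lower by 1.5-fold, against 8.15% and 12.3% of measured genes, with a median of 1.27. They were led by ALAS2, the erythroid enzyme of the first step, with 1856 and 10353 counts. UROS had 836 and 2242 counts and FECH, which inserts the iron, 4744 and 11700 counts. EIF2AK1 had a log2 ratio of 0.40 beside these. Of 17 interferon-stimulated genes, the class to which EIF2AK2 belongs, 11 were measured, with a median of 0.04. Of the 11, 2 were higher (IFIT3 at 33 and 87 counts, OAS3 at 109 and 215), against 8.15% of measured genes. IFI35 was the 1 lower (400 and 237 counts), against 12.3%. OAS1, OAS2, MX1 and IFI44 had 0 counts in either library (a true level of up to 3 counts can give 0), and the log2 ratio of EIF2AK2 was 0.44.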

How the data were processed

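Each of the 2 libraries has a deposited table of counts by Entrez gene. Rsubread alignment to hg19 is named per the file headers, and GRCh37 in the submitters' processing notes. Libraries were strand-specific, per the labels' protocols. How reads with several alignments were handled, and whether strand was used in counting, is not stated. The authors' deposited table adds posterior probabilities from 0 to 1 and a fold ratio, plain and shrunken. That fold has cabozantinib over DMSO: the log2 count ratio minus the log2 shrunken fold lay between -0.0544 and -0.0426 in 10269 genes. The 4 per-library columns of that table carry no sample label and were not used.

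Counts were scaled with TMM (edgeR 4.0.16, R 4.3.3). Log2 ratios used a pseudocount of 0.5, with exact (Clopper-Pearson) 95% intervals of the ratio of counts. TPM used the deposited exon lengths. Intervals of shares and of differences between log2 ratios are large-sample counting intervals. Since each condition has 1 library, the conditions were not tested and no p-values are given. Reads are not independent molecules, so intervals cover counting error only. Computation used numpy 2.4.6, pandas 2.3.3, scipy 1.17.1 and matplotlib 3.10.9 on Python 3.11.15, and the ratio and call functions were tested on simulated data.

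The 10 genes and the lists of other pathway genes were chosen with earlier results of these data known, and the promoter motifs after the sequences were seen. The text names the 10 genes and 11 direct partners whatever their values, and up to 3 called genes each way per list, by the bound of the interval. CDC123, OMA1, IMPACT, PP1 catalytic subunits, ALDH18A1 and the interferon-stimulated genes at 0 were named after their values were seen. Results were recomputed with other scalings (upper quartile, DESeq2 1.42.0 size factors, total counts, totals without globin and mitochondrially encoded genes), pseudocounts, filters and size thresholds, with a gene length trend removed, and with the deposited fold.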

Additional observations from a re-analysis of the deposited data

How the results depend on the processing

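No paired analysis was possible because each group holds 1 library, and for the same reason no library could be left out. At 1.5-fold 0 of the 10 genes were called under every scaling, pseudocount, filter, length and deposited-fold alternative, and at the smaller size (log2 0.32) 3 were higher, or 1 higher and 1 lower with total counts. Shares of all measured genes are given for TMM scaling and the 1 CPM floor only. Total counts put the median over all measured genes at -0.07, that of the 10 genes from 0.23 to 0.14 and that of eIF2B from 0.24 to 0.15. With each alternative 9 of the 10 genes kept their sign. The exception was EIF2AK3, from -0.06 to 0.03. TPM was not among these settings, and by TPM EIF2B2 was lower with cabozantinib (44.7 against 46.6 in DMSO). EIF2AK3 was lower by TPM as well (6.22 against 6.88). EIF2AK4 was lower by more than by CPM, at 28.1 TPM against 37.5 in DMSO. The 7 genes with an interval above no change stayed higher by TPM, each by less than by CPM. Among them EIF2AK1 had 239 TPM against 204 in DMSO, EIF2AK2 21.5 against 17.8, EIF2B1 122 against 104 and EIF2S1 80.5 against 78.1. Calls and medians were not recomputed by TPM. Without division by length (CPM in place of TPM) the shares of eIF2B RNA in DMSO and with cabozantinib were 22.6% and 24.8% for EIF2B1, 8.33% and 7.49% for EIF2B2, 13.5% and 13.7% for EIF2B4, 27.7% and 26.8% for EIF2B3, and 27.8% and 27.2% for EIF2B5. EIF2B5 then came first in both libraries, ahead of EIF2B3 and EIF2B1. The share of EIF2AK1 among the kinases in DMSO was then 75.8%, and that of EIF2S1 in its trimer was 15.7% in DMSO and 19.1% with cabozantinib, there ahead of EIF2S2 (17.7%) in place of last. Both of these alternatives were chosen after seeing the data. Among the other lists, total counts gave 2 kinase regulators lower in place of 1, and a floor of 5 CPM gave 1 interferon-stimulated gene higher in place of 2. Depth limits EIF2AK3 and EIF2AK2 most, with 385 to 840 counts per library.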

Other observations

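The factors that act with eIF2 in initiation but lie outside its cycle mostly lay within 1.5-fold. Of 24 eIF3 and eIF4 factors, 0 were higher and 1 was lower by 1.5-fold, against 8.15% and 12.3% of measured genes. Their median log2 ratio was -0.03. The gene called was EIF4EBP1, an inhibitor of the cap-binding protein eIF4E and a known target of ATF4, 1.78-fold lower at 2431 counts with cabozantinib against 4496 in DMSO. Its relative EIF4EBP2 had 7269 and 7918 counts and a ratio of 0.18 (0.13 to 0.23), and EIF4E itself 1582 and 1729 counts and a ratio of 0.19 (0.09 to 0.28). At the smaller size (log2 0.32) 4 of the 24 were higher and 2 lower, against 19.2% and 20.5% of measured genes. The highest ratio of the 24 was that of EIF4A2, 0.53 (0.49 to 0.58). EIF4EBP2, EIF4E and EIF4A2 were chosen after their values were seen.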
